A study of Mus musculus with 18 samples.

Results

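The 6 genes described here encode small intracellular proteins that carry fatty acids or retinoic acid: Fabp5, Crabp1, Crabp2, Fabp3, Fabp4 and Fabp7. They were chosen by symbol, and they make up 6 of the 22180 genes and 10 of the 41345 probe sets of the arrays. RNA came from cultures of the mouse mammary carcinoma line NaF, and each of 6 groups had 3 arrays. In 12 samples the medium was changed to DMEM with 10% charcoal-treated FBS, serum depleted of small lipophilic molecules, 48 hours before ligand. Of these, 3 were charcoal-serum controls, 3 received retinoic acid, 3 received TTNPB and 3 received GW1516, each at 1 µM for 6 hours. Full medium, DMEM with 10% untreated FBS, was kept for 6 samples, of which 3 were controls, titled untreated cells, and 3 were given palmitate (10 µM, 6 hours). The sample titles name no vehicle for any control. All groups share the 1 cell line, and no sample carried a genetic change to any of the 6 genes as far as the labels state. Nothing in the labels says whether the 3 replicates of a group were separate cultures, so each p-value reflects array-to-array spread that may be technical.

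Intracellular lipid-binding proteins hold a lipid in a closed barrel and carry it through the cytosol. CRABP2 moves retinoic acid to the retinoic acid receptors (RAR) in the nucleus, whose targets include genes of differentiation and growth arrest. FABP5 carries fatty acids, and also retinoic acid, to PPARδ, whose targets include genes of fatty acid use and survival. In mammary carcinoma cells the balance of FABP5 and CRABP2 has been described as a switch between these receptors. CRABP1 is the cytosolic partner linked to retinoic acid breakdown, FABP3 is best known from heart muscle, FABP4 from adipocytes and macrophages, and FABP7 from glia. Of the ligands given, palmitate is a saturated fatty acid, GW1516 a synthetic agonist of PPARδ, TTNPB a synthetic agonist of RAR and retinoic acid the ligand that RAR bind naturally. The series title names retinoic acid signaling and FABP5, so the measured questions are the level of the carriers and their change with each ligand.

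Promoter windows of 250 bases before the gene start were found in RefSeq (GRCm38.p6) for 3 of the 6 genes: Fabp3, Crabp1 and Fabp7. Both RAR and PPARδ bind repeats of the half-site AGGTCA, so the windows were searched for AGGTCA on both strands (TGACCT on the other). The window of Fabp3, the one gene of the 3 that was measured above background, is shown because it held no such match. That of Fabp7 is shown because it held the only one, in capitals, with its first base at position -171 from the gene start. Both windows lie on the + strand, at chr4:130308488-130308737 for Fabp3 and chr10:57784673-57784922 for Fabp7.
Fabp3: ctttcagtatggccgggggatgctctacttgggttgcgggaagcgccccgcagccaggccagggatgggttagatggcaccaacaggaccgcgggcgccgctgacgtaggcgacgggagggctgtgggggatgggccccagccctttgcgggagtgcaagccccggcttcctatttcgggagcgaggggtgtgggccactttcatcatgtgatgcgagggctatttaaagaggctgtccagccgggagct
Fabp7: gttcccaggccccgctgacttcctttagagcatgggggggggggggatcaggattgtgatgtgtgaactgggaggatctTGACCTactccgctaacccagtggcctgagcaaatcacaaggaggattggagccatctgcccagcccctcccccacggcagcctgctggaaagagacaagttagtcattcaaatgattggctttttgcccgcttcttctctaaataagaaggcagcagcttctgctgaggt
The Crabp1 window (chr9:54764498-54764747) held no match. Of 32851 windows of the same length, 4607 (14.0%) held the half-site. GC content was 64.8% for Fabp3, 63.6% for Crabp1 and 54.8% for Fabp7, against a median of 52.4% over all windows. In the reference order, Fabp5 and Fabp4 are close neighbours, in the run Fabp5, Pmp2, Fabp9, Fabp4, Fabp12, a cluster of genes of this family.

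Values were used as deposited and read as log2 expression values, a scale inferred from their size. Medians of the arrays lay between 1.06 and 1.32 in charcoal serum and between 0.47 and 0.55 in full medium, so levels were compared only within a serum. GW1516 replicate 3 stood apart in background: the median of the receptor genes named next was 0.995 on it, against 0.676 and 0.715 on the other GW1516 arrays. A gene counted as above background when its group mean passed the 95th percentile of that group's means for 1394 odorant and pheromone (olfactory and vomeronasal) receptor genes. That background was 0.59 in controls and 0.63 with palmitate in full medium. In charcoal serum it was 1.31 in controls, and 1.15 for retinoic acid, 1.29 for TTNPB and 1.30 for GW1516. Markers of mammary epithelium were only partly present: of 7 measured, 3 were above background in all 6 groups (Krt18, Cdh1 and Krt8), and Krt14 was in none. Krt18 lay between 7.69 and 8.43 over the arrays and Cdh1 between 3.17 and 5.66. Of 4 measured adipocyte markers, Adipoq, Lep and Cidec were above background in no group and Plin1 in 4. Of 4 leukocyte markers, Cd68 was above it in all 6 groups (0.803 to 2.10 over the arrays), Ptprc in 4, and Csf1r and Adgre1 in none. Of 4 muscle markers, Tnnt2 (7.63 to 9.34) and Ckm (0.689 to 2.48) were above it in all 6 groups, Myh6 in 3 and Actc1 in none. Of 3 measured glial markers, Sox10 (7.05 to 8.98) and Mbp (1.18 to 2.25) were above it in all 6 groups and Gfap in none. The mesenchymal marker Vim lay between 10.3 and 10.8, and the endothelial marker Cdh5 between 6.88 and 8.98. The other endothelial markers, Pecam1, Kdr and Tie1, and the mesenchymal Cdh2 and Fn1 were above background in no group, and Col1a1 in 1. No marker of any of these lists passed the test with any ligand, beside 0.681% (palmitate) to 5.29% (retinoic acid) of all genes. In whole cultures, fewer cells of a type and less RNA per cell cannot be told apart.

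Fabp5 and Fabp3, each read by the brightest of its several probe sets, were the 2 genes above background on all 18 arrays. Crabp2 lay at the edge of background, and Crabp1, Fabp4 and Fabp7 were above it in no group. Fabp5 read 4.08, 4.50 and 4.19 in charcoal controls, 3.95, 4.22 and 4.16 after retinoic acid, 4.25, 4.09 and 3.86 after TTNPB, and 4.08, 4.13 and 4.56 after GW1516. In full medium it read 2.36, 2.88 and 2.48 in controls and 2.75, 2.46 and 2.39 with palmitate. Replicate 2 of the charcoal controls and replicate 3 of GW1516 were the highest of the charcoal arrays, and ligand and control arrays overlapped in every comparison. On those arrays the median of the receptor genes, a measure of array background, was also the highest of their groups, at 0.861 and 0.995 against 0.676 to 0.836 on the other charcoal-serum arrays. Its part in the Fabp5 values was not tested. On each array Fabp5 stood between the 68.7th and 76.6th percentile of all genes.

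Crabp2, the carrier to RAR, read 1.58, 1.38 and 1.22 in charcoal controls, 1.33, 0.92 and 1.58 after retinoic acid, 1.52, 1.42 and 1.27 after TTNPB, and 1.14, 1.35 and 1.52 after GW1516. In full medium it read 0.37, 0.47 and 0.61 in controls and 0.41, 0.41 and 0.49 with palmitate. In each charcoal group 2 of 3 arrays passed the background, in full-medium controls 1 of 3 and with palmitate 0 of 3. Group means stood above background by only 0.04 to 0.13 in charcoal serum and under it by 0.11 and 0.19 in full medium. A change of Crabp2 could thus be measured only near its floor.

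Fabp3 read 3.46, 2.99 and 4.20 in charcoal controls, 3.25, 3.12 and 3.36 after retinoic acid, 3.48, 3.34 and 3.38 after TTNPB, and 3.96, 3.28 and 3.29 after GW1516. In full medium it read 1.24, 1.96 and 1.46 in controls and 1.34, 1.52 and 1.43 with palmitate. The charcoal controls spread most, with an SD of 0.61 against 0.07 to 0.39 in the ligand groups of that serum. Their lowest and highest arrays bracketed all arrays of retinoic acid, TTNPB and GW1516.

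The other 3 genes stayed at background level in nearly all arrays. Crabp1 ran from 0.67 to 0.97 in charcoal serum and from 0.29 to 0.56 in full medium, and passed background on 0 of 18 arrays. Fabp4 ran from 0.84 to 1.31 and from 0.27 to 0.45, and passed it on 1 array, replicate 1 of retinoic acid. Fabp7 ran from 0.95 to 1.48 and from 0.41 to 0.75, and passed it on 1 array each of TTNPB, full-medium control and palmitate. These 3 are reported as not measurable, and their changes below are differences between values at background.

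**Figure D1:**
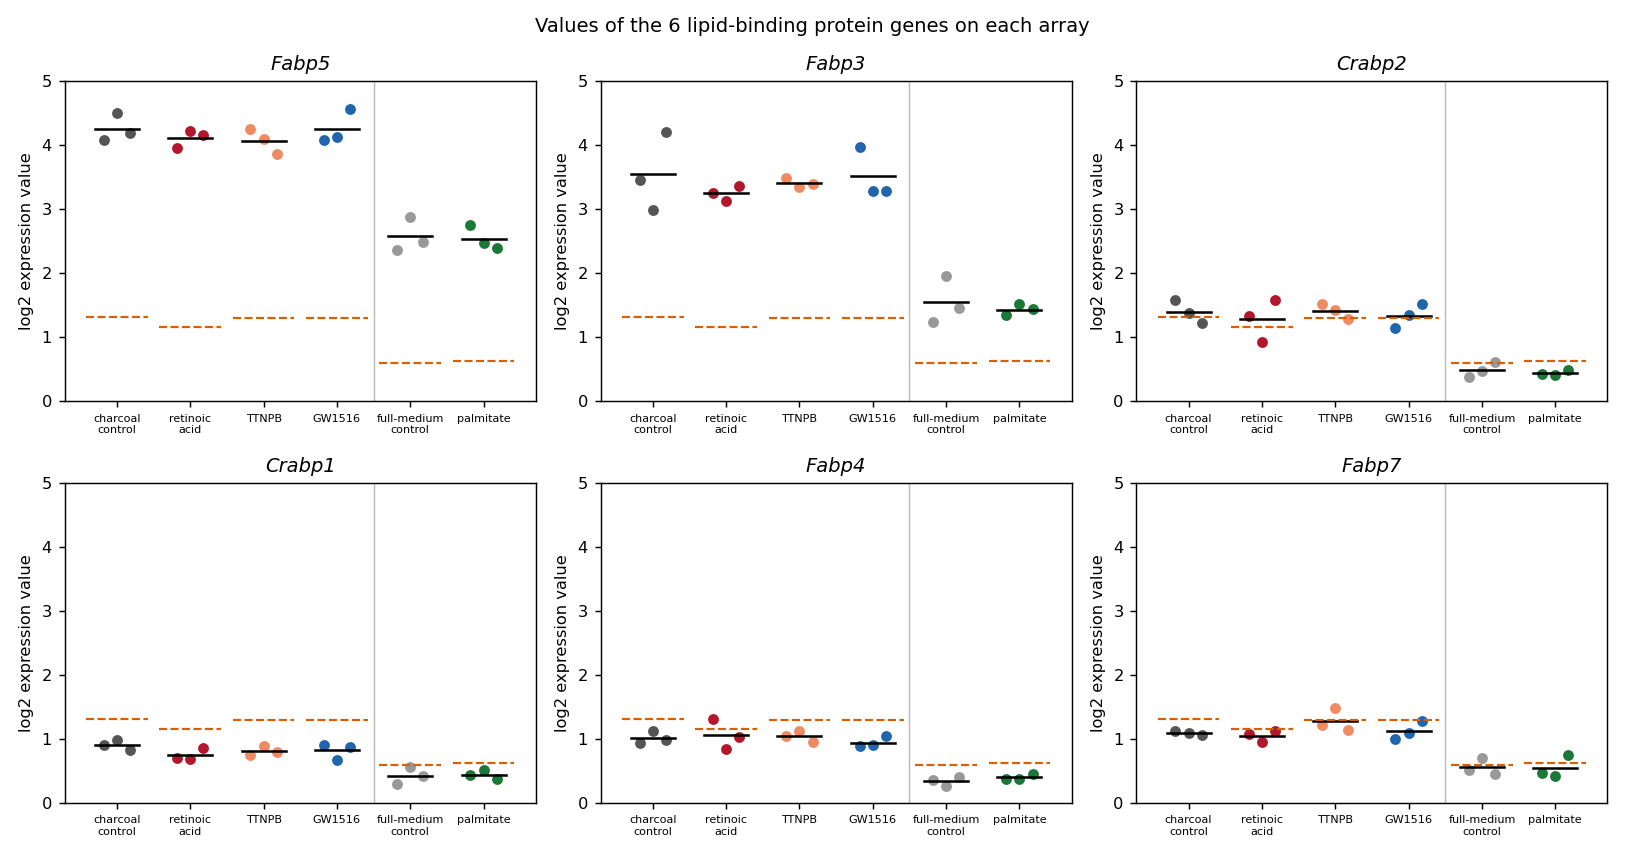
Log2 expression value of each of the 6 genes on each array by group; points are arrays, black bars group means, dashed orange bars the background of the group, and the vertical line parts the 2 sera. Fabp5 and Fabp3 lie above background on all 18 arrays, Crabp2 lies around it, and Crabp1, Fabp4 and Fabp7 have group means under it.

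The 4 probe sets of Fabp5 did not give 1 picture. Probe set 17548238, used above as the brightest, and 17548717 read alike, the second at 4.03 ± 0.16 in controls (charcoal serum), 3.93 ± 0.19 for retinoic acid, 3.86 ± 0.19 for TTNPB and 4.13 ± 0.37 for GW1516 (SD, n = 3 each). In full medium it read 2.41 ± 0.32 in controls and 2.39 ± 0.25 with palmitate. Probe sets 17396056 and 17404073 had group means under background in all 6 groups, from 0.92 to 1.07 and from 0.64 to 0.92 in charcoal serum. Probe set 17396056 correlated with 17548238 at r = 0.62, 17404073 with it at r = 0.44, and the bright pair with each other at r = 0.96. These are descriptions over 18 arrays after each serum's mean was subtracted, and share the arrays' common background. Tested on its own, a choice made after seeing the data, probe set 17548717 differed by -0.10 with retinoic acid, -0.17 with TTNPB, 0.10 with GW1516 and -0.02 with palmitate, none past the test. Of the dim pair, 17404073 differed by 0.22 with palmitate (adjusted p = 0.764). A pseudogene of Fabp5, Fabp5l2, is listed in the reference, and no probe set carries its symbol, so how far the probe sets share signal with near copies was not tested. The brightest Fabp3 probe set, 17419215, had a companion, 17430628, under background in all 6 groups (r = -0.13).

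**Figure D2:**
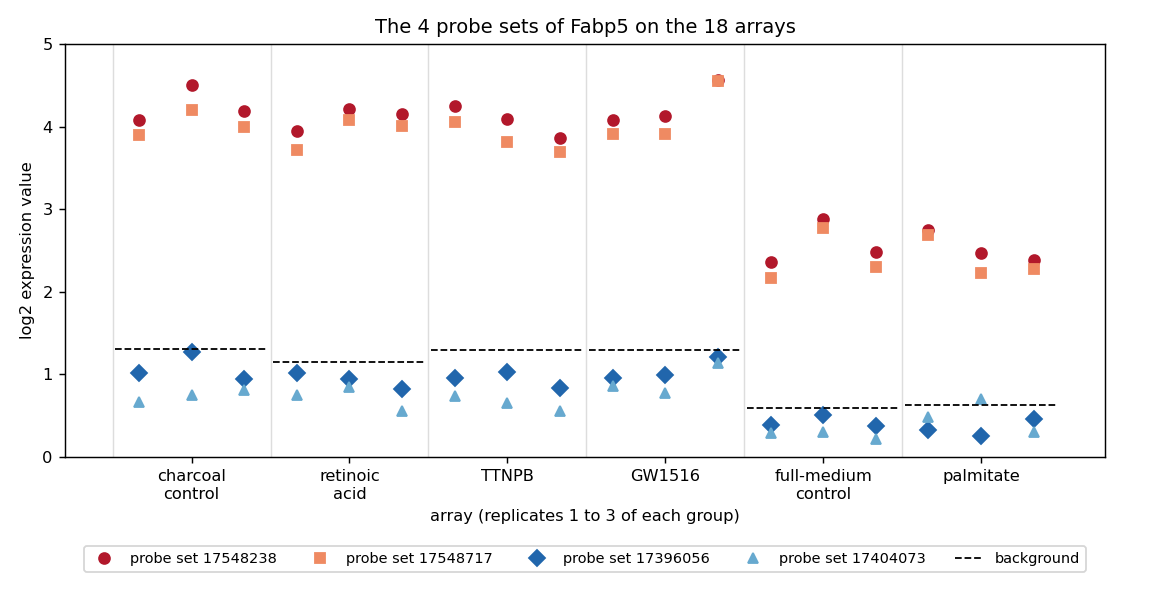
Log2 value of the 4 Fabp5 probe sets on the 18 arrays, ordered by group; dashed lines mark background. Probe sets 17548238 and 17548717 lie well above background in all groups, and 17396056 and 17404073 lie under it on all arrays but 1, palmitate replicate 2 for 17404073.

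None of the 6 genes passed the test with retinoic acid, where limma called 5.29% of all genes (adjusted p under 0.05 over 22180 genes; 848 higher and 326 lower). Fabp5 differed from control by -0.15 ± 0.18 (SE) on the log2 scale (0.904-fold, 95% interval of the log2 difference -0.52 to 0.22, adjusted p = 0.775). That difference was -0.025 without charcoal-control replicate 2 and -0.24 without replicate 1 of the same group. Crabp2 differed by -0.11 ± 0.15 (-0.42 to 0.19, adjusted p = 0.791). Fabp3 differed by -0.30 ± 0.25 (-0.82 to 0.22, adjusted p = 0.625), which becomes 0.023 without charcoal-control replicate 3. The median of the 6 genes was -0.13, against -0.03 over all genes. The interval of Fabp5 allows a fold from 0.699 to 1.17, and that of Fabp3 from 0.566 to 1.16, so a change inside those bounds could not be told from no change.

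TTNPB, the RAR agonist at the same dose and time, called 1.26% of all genes and 0 of the 6. Fabp5 differed by -0.19 ± 0.18 (-0.56 to 0.18, adjusted p = 0.814), and by -0.068 without charcoal-control replicate 2 or -0.28 without TTNPB replicate 1. Crabp2 differed by 0.01 ± 0.15 (-0.30 to 0.32, adjusted p = 0.992) and Fabp3 by -0.15 ± 0.25 (-0.67 to 0.37, adjusted p = 0.925). Fabp7 read 1.21, 1.48 and 1.14 with TTNPB, against 1.12, 1.09 and 1.06 in controls. Its difference was 0.18 (adjusted p = 0.649), and both groups stood under background as means. The median of the 6 was -0.04, against -0.00 over all genes.

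The RAR agonists retinoic acid and TTNPB were compared directly, as 1 pair, at 1 µM and 6 hours. limma called 0.153% of all genes between them and 0 of the 6. Retinoic acid minus TTNPB was 0.04 for Fabp5 (95% interval -0.33 to 0.41, adjusted p = 0.982), -0.13 for Crabp2 (-0.44 to 0.18, adjusted p = 0.916) and -0.16 for Fabp3 (-0.68 to 0.36, adjusted p = 0.944). Between values at background, it was -0.07 for Crabp1, 0.02 for Fabp4 and -0.23 for Fabp7 (limma adjusted p = 0.929, 0.986 and 0.716). The intervals of all 6 still hold differences of either sign.

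With GW1516, the PPARδ agonist, 2.57% of all genes were called and 0 of the 6. The Fabp5 difference was 0.00 ± 0.18 (-0.37 to 0.37, adjusted p = 0.998), an interval that allows a fold from 0.775 to 1.29. It was -0.15 without GW1516 replicate 3 and 0.12 without charcoal-control replicate 2, neither called. Crabp2 differed by -0.06 ± 0.15 (-0.37 to 0.25, adjusted p = 0.898; -0.15 without that GW1516 array) and Fabp3 by -0.04 ± 0.25 (-0.56 to 0.48, adjusted p = 0.962). The median of the 6 was -0.05, against -0.01 over all genes.

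With palmitate, in full medium, 0.681% of all genes were called and 0 of the 6. Fabp5 differed from full-medium control by -0.04 ± 0.18 (-0.41 to 0.33, adjusted p = 1), an interval that allows a fold from 0.753 to 1.26. Crabp2 differed by -0.04 ± 0.15 (-0.35 to 0.26, adjusted p = 1), at values under background. Fabp3 differed by -0.12 ± 0.25 (-0.64 to 0.40, adjusted p = 1). The median of the 6 was -0.03, against -0.00 over all genes.

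The retinoic acid, TTNPB and GW1516 comparisons share their 3 charcoal controls, so their values for a gene are not independent. The palmitate effect was set against the others as an interaction. Palmitate minus retinoic acid effect was called for 2.56% of all genes, and palmitate minus GW1516 effect for 1.26%, and in each for 0 of the 6. For Fabp5 the first was 0.11 (95% interval -0.42 to 0.63, adjusted p = 0.932) and the second -0.04 (-0.56 to 0.48, adjusted p = 0.984). In none of the 7 contrasts did any of the 6 genes reach an unadjusted p under 0.05 in limma. The share of all genes under that unadjusted threshold was not counted. With 3 of the 6 genes above background in no group, neither this nor the counts of 0 of the 6 show that the genes stayed the same. The 12 changes of Crabp1, Fabp4 and Fabp7 with the 4 ligands ran from -0.16 to 0.18, with adjusted p from 0.436 to 1.

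**Figure D3:**
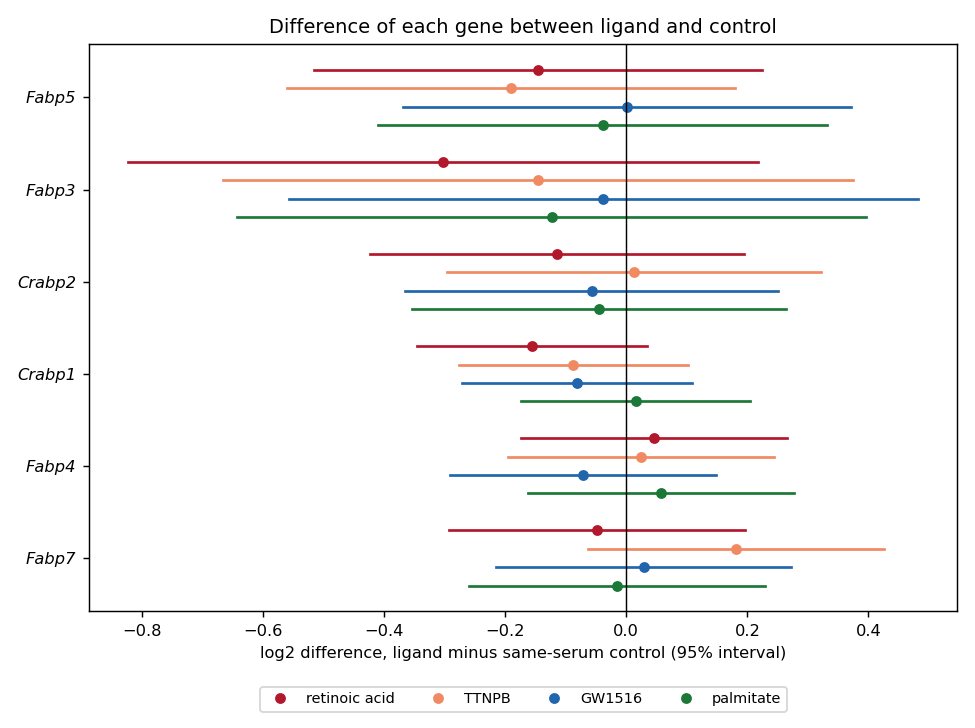
Log2 difference between each ligand and its same-serum control for the 6 genes, with 95% intervals from limma; colours mark the ligand. All 24 intervals cross 0, with Fabp3 the widest.

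The balance of Fabp5 and Crabp2, taken as the difference of their log2 values on each array, was compared between groups only, since levels of different probe sets are not on 1 scale. It was 2.50, 3.12 and 2.97 in charcoal controls, 2.62, 3.30 and 2.57 after retinoic acid, 2.73, 2.67 and 2.58 after TTNPB, and 2.94, 2.78 and 3.05 after GW1516. In full medium it was 1.99, 2.41 and 1.87 in controls and 2.33, 2.05 and 1.90 with palmitate. Arrays of each ligand overlapped those of its control. The mean changed by -0.03 with retinoic acid (exact permutation p = 1), by -0.20 with TTNPB (exact permutation p = 0.4), by 0.06 with GW1516 (exact permutation p = 0.9) and by 0.01 with palmitate (exact permutation p = 1). All 4 adjusted p were 1 by the Benjamini-Hochberg method, and the smallest p that 3 arrays against 3 allow in this 2-sided exact test is 0.1. Crabp2 means stood within 0.19 of background in all 6 groups.

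**Figure D4:**
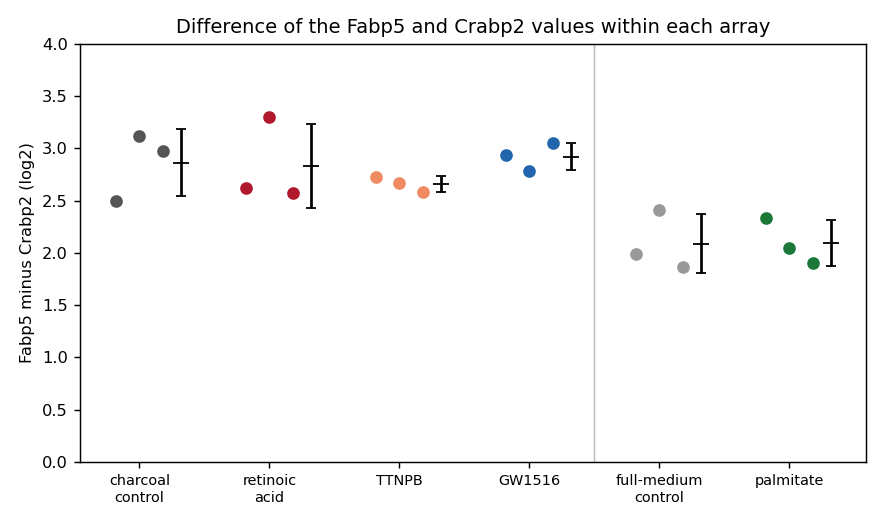
Fabp5 minus Crabp2 log2 value on each array by group; points are arrays, and the bar with whiskers beside them is the mean with SD (n = 3). In charcoal serum the arrays of all 4 groups lie between 2.50 and 3.30. The arrays of each ligand overlap those of its same-serum control.

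Among 8 other measured lipid-binding proteins (Fabp1, Fabp2, Fabp6, Fabp9, Fabp12, Pmp2, Rbp2 and Rbp7), 0 passed the test with any ligand, beside 5.29%, 1.26%, 2.57% and 0.681% of all genes with retinoic acid, TTNPB, GW1516 and palmitate. Their medians lay between -0.02 and 0.09. A count of 0 of 8 is no lower than those shares give, and 6 of the 8 were above background in no group, so these counts do not show that they stayed the same. Rbp7, which binds retinol, was the one above background in all 6 groups. It lay at 2.55 in charcoal controls and 1.26 in full-medium controls, levels not comparable between the sera. Fabp9 and Pmp2, the neighbours between Fabp5 and Fabp4, were above background in no group.

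Of the 9 receptor genes served by these carriers, 5 were above background in all 6 groups: Rara, Rarg, Rxra, Rxrb and Ppard. Ppard, the receptor named with FABP5, lay at 5.57 in charcoal controls and 5.57 in full-medium controls, levels not comparable between the sera. It differed by 0.42 with retinoic acid, 0.31 with TTNPB, 0.38 with GW1516 and 0.13 with palmitate, none past the test. Pparg was above background in no group. With retinoic acid 1 of the 9 rose: Rarb, a receptor gene that is itself an RAR target, by 1.18 ± 0.17 (SE, adjusted p = 0.000448). With TTNPB 0 of 9 were called. With GW1516 Rara rose by 0.63 (adjusted p = 0.0424), a call lost in 9 of 15 alternative settings (adjusted p 0.0585 to 0.333). With palmitate Rxrb, a partner receptor of both RAR and PPARδ, rose from 5.31 to 5.97 (1.58-fold, adjusted p = 0.0309), a call lost in 8 of 15 (adjusted p 0.0579 to 0.202). For palmitate, the fit to only the arrays compared and the fit to the arrays of the same serum are identical, and both are counted there. The median of the 9 was 0.24 with retinoic acid, 0.25 with TTNPB, 0.04 with GW1516 and 0.00 with palmitate. Over all genes it was -0.03, -0.00, -0.01 and -0.00 in that order. The shares of all genes called were 5.29%, 1.26%, 2.57% and 0.681%, so the count of 0 of 9 with TTNPB does not show that the receptor genes stayed the same.

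Of 10 measured genes known as FABP5 and PPARδ targets, 7 were above background in all 6 groups. Angptl4 and Ucp3 were above it in no group. With GW1516 2 of the 10 rose and 0 fell, beside 2.57% of all genes called. The list's median was 0.36 against -0.01 over all genes. Cpt1a, which encodes the enzyme that takes long-chain fatty acids into mitochondria, rose by 0.71 ± 0.10 (SE, adjusted p = 0.00116). Acadl, an acyl-CoA dehydrogenase gene, rose by 0.45 ± 0.11 (adjusted p = 0.0310). Pdk4, above background in 3 groups, differed by -0.27 with GW1516 (adjusted p = 0.411). The Cpt1a call was lost only when the fit held just the 6 arrays compared (adjusted p = 0.197), and the Acadl call was lost in 6 of 15 settings (adjusted p 0.0667 to 0.327). With retinoic acid, TTNPB and palmitate 0 of 10 were called, beside 5.29%, 1.26% and 0.681% of all genes. The list's medians were 0.06, -0.00 and -0.01, against -0.03, -0.00 and -0.00 over all genes.

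Of 9 measured genes known as CRABP2 and RAR targets, 6 were above background in all 6 groups. Of all genes, 5.29%, 1.26%, 2.57% and 0.681% were called with retinoic acid, TTNPB, GW1516 and palmitate. With retinoic acid 3 of the 9 rose and 0 fell, with a median of 0.13 against -0.03 over all genes. Cyp26b1, which encodes an enzyme that breaks down retinoic acid, rose from 3.41 to 6.03 (6.15-fold, adjusted p = 4.88e-08), Rarb rose as above, and Tgm2, the transglutaminase gene, rose by 0.73 (adjusted p = 2.81e-05). These 3 calls held in all 15 alternative settings. With TTNPB only Tgm2 was called, by 0.50 (adjusted p = 0.00277), a call lost in 1 of 15 settings, median centring (adjusted p = 0.0639), and Cyp26b1 differed by 0.60 (adjusted p = 0.0969). Between retinoic acid and TTNPB, Cyp26b1 was higher with retinoic acid by 2.02 (adjusted p = 1.13e-05). Tgm2 was also called with GW1516, by 0.38 (adjusted p = 0.0154), and lost that call in 3 of 15 settings (adjusted p 0.0674 to 0.335). With palmitate 0 of 9 were called. Cyp26a1 was above background in no group.

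Of 14 measured genes of retinoid and fatty acid entry and supply, 8 were above background in all 6 groups. One rose, Acsl4 with GW1516, which encodes an enzyme that joins long-chain fatty acids to coenzyme A. Its log2 value went from 7.35 to 8.03 (adjusted p = 0.0302), and the call was lost in 5 of 15 settings (adjusted p 0.0623 to 0.259). The share of all genes called with GW1516 was 2.57%. With retinoic acid, TTNPB and palmitate 0 of 14 were called, beside 5.29%, 1.26% and 0.681% of all genes. 

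**Figure D5:**
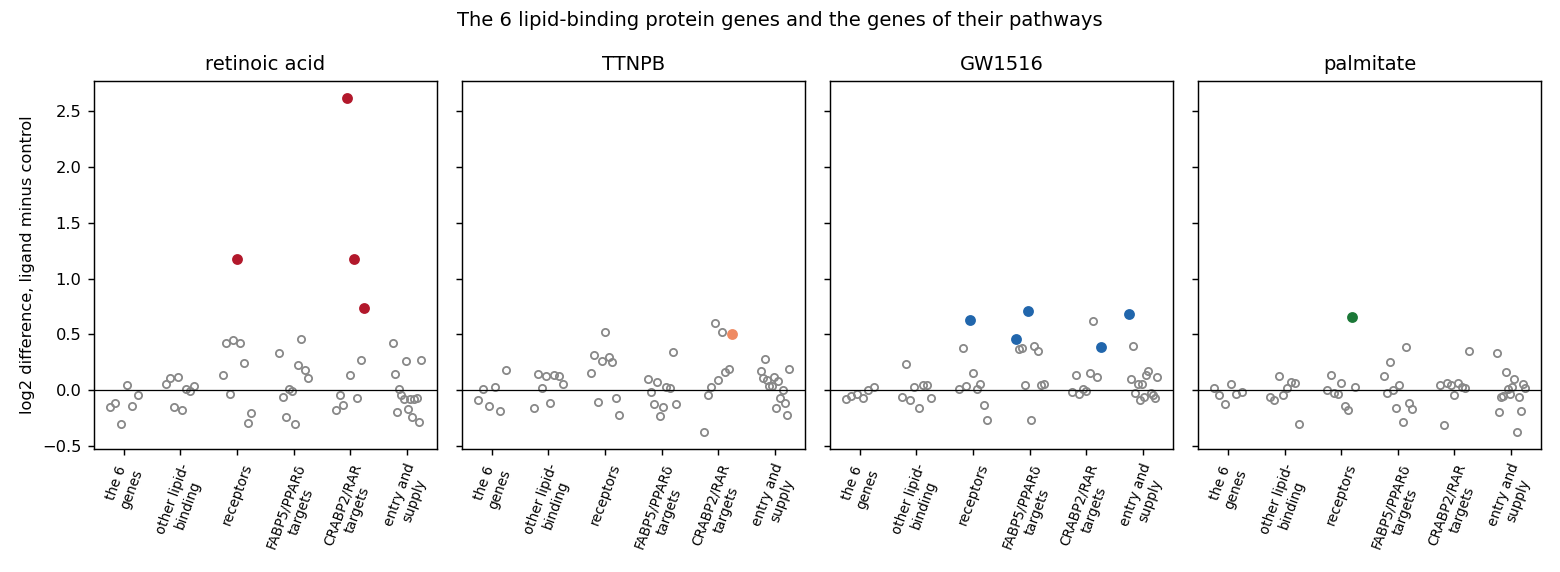
Log2 difference between ligand and same-serum control for the 6 genes and for 5 lists of related genes, 1 point a gene; filled points have an adjusted p under 0.05 and open points do not, and Rarb and Stra6 stand in 2 lists each. Filled points are found among receptors, targets and, with GW1516, entry and supply (Acsl4), with Cyp26b1 (2.62) the highest, and none among the 6 genes or the other lipid-binding proteins.

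Genes most like Fabp5 were sought over all 18 arrays, after each serum's mean was subtracted, among 8997 genes above background in all 6 groups. The highest Pearson r were those of Mir1951 (0.75), Cdc14a (0.75), Phf5a (0.73), 4930404H24Rik (0.70) and Ifitm5 (0.70). The lowest were those of Guk1 (-0.84), Fitm2 (-0.81) and Zfyve27 (-0.79). For Fabp3 the highest were Leng1 (0.78), Platr22 (0.77), Zfp668 (0.73), Nfam1 (0.73) and Phldb1 (0.72), and the lowest Ssh3 (-0.77), Mir329 (-0.68) and Shb (-0.67). These points share their arrays and the array background, and no p is given for genes picked from so many. Fabp5 and Fabp3, the 2 genes of the 6 above background on all 18 arrays by their brightest probe sets, varied separately over the arrays (r = -0.000276).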

How the data were processed

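RNA of NaF cells was labelled as biotinylated cRNA and hybridised to Affymetrix mouse arrays, per the labels. The authors deposited log2 values, one for every probe set on every array, made with Partek, per the submitters' processing notes. The Partek version, the normalization and the genome build are not given in the sources used here; a log2 scale was inferred because the values lie far below those of linear intensities.

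Of 41345 probe sets, 23521 carried 1 symbol, 1814 several and 16010 none; 23328 were matched by Entrez number to a GRCm38.p6 table. For 1082 genes with several probe sets the one with the highest mean was used. A limma 3.58.1 model of the 6 group means used all 18 arrays (R 4.3.3, variance trend, 12 residual degrees of freedom), with 2-sided p-values adjusted by Benjamini-Hochberg over 22180 genes and a threshold of 0.05. No filter on low values was used. Folds are 2 to the power of the log2 difference. The number of arrays limits the precision. The code was tested on simulated data.

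The 6 genes and all lists were chosen with earlier results of these data known. All 6 genes were tested in every contrast. Single values are given for Fabp5, Crabp2 and Fabp3 with each ligand, for all 6 between retinoic acid and TTNPB, and for Fabp5 in the interactions. Changes of Crabp1, Fabp4 and Fabp7 with the ligands are given as a range, and singly for Fabp7 with TTNPB. Of other lists, only genes past the threshold are named, up to 4 a list. Of the genes most like a gene, the 5 highest and 3 lowest r are named. Genes named otherwise (Ppard, Pparg, Pdk4, the genes under background and the single markers) were chosen after their values were seen. Alternatives were the arrays in the fit, the replicate number as a block, no variance trend, quantile normalization, median centring, dim genes left out, the mean of probe sets, the background rule and each array left out. Testing every probe set on its own was chosen after seeing the data.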

Additional observations from a re-analysis of the deposited data

Results flagged for a closer look

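The palmitate effect and the ligand effects were compared by an interaction term in limma, and 4 such differences among the related genes passed an adjusted p of 0.05. None concerned the 6 lipid-binding protein genes. Of all genes, 2.56% were called against the retinoic acid effect and 1.26% against the GW1516 effect. Cyp26b1 differed by -2.58 between the palmitate and the retinoic acid effect (adjusted p = 1.13e-05): it rose with retinoic acid and differed by 0.04 with palmitate. Rarb differed by -1.12 (adjusted p = 0.0173), and in full medium its means, 0.22 and 0.28, stood under background, so a change with palmitate could not be measured there; the call was lost in 3 of 20 settings (adjusted p 0.0524 to 0.0538), namely without charcoal-control replicate 2, retinoic acid replicate 1 or full-medium replicate 2. Rxrb differed by 0.95 (adjusted p = 0.0121), lost in 1 of 20 settings, median centring (adjusted p = 0.0839). It rose by 0.66 with palmitate, a call lost in 8 of 15 settings, and differed by -0.29 with retinoic acid (adjusted p = 0.299 in limma). Cpt1a differed by -0.87 between the palmitate and the GW1516 effect (adjusted p = 0.00547), lost in 2 of 20 settings (adjusted p 0.0651 and 0.0688). Palmitate and the other ligands were given in different sera, and ligand, dose and serum cannot be told apart in these differences. Groups of 3 arrays were not tested for single outlying values.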

How the results depend on the processing

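Of the changes refitted, none was called: over 321 refits of 21 results the lowest adjusted p in limma was 0.278. These were the changes with each ligand, with Crabp1, Fabp4 and Fabp7 read as 1 group, retinoic acid minus TTNPB for Fabp5, Crabp2 and Fabp3, and the interactions for Fabp5 alone. For palmitate, the fits to only the arrays compared and to the arrays of the same serum are identical and are counted under both settings. The other contrasts of the 6 genes were not refitted. Signs of some of these small changes were not stable, and reversed in 31 of the 321 refits. Fabp5 kept a negative sign in every alternative with retinoic acid and with TTNPB. The group of Crabp1, Fabp4 and Fabp7 was read by size of change, without sign. With quantile normalization within each serum, Fabp5 differed by -0.042 with GW1516, 0.050 with palmitate, -0.065 between retinoic acid and TTNPB and 0.092 between the palmitate and GW1516 effects. With the mean of all probe sets, Fabp5 differed by 0.024 with palmitate, and the Fabp5 minus Crabp2 balance by 0.0095 with retinoic acid. Leaving out 1 array at a time, Fabp5 ran from -0.24 to -0.025 with retinoic acid, -0.28 to -0.068 with TTNPB, -0.15 to 0.12 with GW1516, -0.15 to 0.11 with palmitate, -0.061 to 0.13 for retinoic acid minus TTNPB, -0.014 to 0.26 for the palmitate minus retinoic acid effect and -0.16 to 0.11 for the palmitate minus GW1516 effect. Crabp2 ran from -0.27 to 0.064 with retinoic acid, -0.073 to 0.11 with TTNPB, -0.15 to 0.04 with GW1516, -0.10 to 0.018 with palmitate and -0.28 to 0.051 for retinoic acid minus TTNPB. Fabp3 ran from -0.58 to 0.023, -0.43 to 0.18 and -0.32 to 0.29 with retinoic acid, TTNPB and GW1516, each without charcoal-control replicate 2 and replicate 3, and from -0.28 to 0.080 with palmitate. For Fabp3, retinoic acid minus TTNPB ran from -0.21 to -0.095. The balance ran from -0.26 to 0.10 with retinoic acid, -0.12 to 0.19 with GW1516 and -0.11 to 0.17 with palmitate. With TTNPB the balance change stayed negative whichever array was left out. With the median of all probe sets as background, the mean of Fabp7 stood above it by 0.12 with TTNPB, 0.066 in full-medium controls and 0.042 with palmitate.

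Counts of all genes called depended on the setting. With only the arrays compared they were 1852 for retinoic acid, 498 for TTNPB, 3 for GW1516 and 1 for palmitate. For palmitate, the arrays of the same serum are these same arrays, so that setting gave the same fit. Median centring gave 749, 84, 266 and 17, quantile normalization 419 for TTNPB, and leaving out dim genes 454 for TTNPB, 872 for GW1516 and 228 for palmitate. Without 1 array they ran from 583 to 932, 112 to 170, 198 to 711 and 62 to 141. The causes were not tested. Same-numbered replicates did not deviate together (r -0.28 to 0.21). With the replicate block the counts were 1031, 198, 498 and 112, and Fabp5 with retinoic acid differed by -0.15 (adjusted p = 0.790).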
